A study of Mus musculus with 4 samples.

Results

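The miR-34 family was described in cultured mouse synovial fibroblasts, the matrix-producing lining cells of the joint, from small RNA sequencing. Its members were the rows of the deposited tables whose names, without species prefix and arm mark, read miR-34a, miR-34b or miR-34c. This gave 5 of the 590 miRNAs listed in any library, named mmu-miR-34a, mmu-miR-34b-5p, mmu-miR-34b-3p, mmu-miR-34c and mmu-miR-34c* in the tables, the star marking the less abundant arm of the hairpin. The TghuTNF group held 2 libraries from mice that carry a human TNF transgene and are used as a model of rheumatoid arthritis. The wild-type (WT) group held 2 libraries from littermates without it. Mice of both groups had a CBA/J * C57BL/6/J background and were 8 weeks old. Fibroblasts were released from the hind joints by enzymatic digestion and selected by culture for 4 passages. By flow cytometry most cells carried CD90.2, VCAM-1 and ICAM-1 and few carried Mac1, per the labels. The sources used here name neither the promoter of the transgene nor any pooling of animals. The series design calls the samples biological replicates, and the error of each comparison comes from the spread between these 4 libraries. For edgeR and limma that spread is moderated over all rows tested.

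A miRNA is cut from a hairpin precursor, and usually 1 of its arms is loaded into Argonaute, where bases 2 to 8, the seed, pair with target messenger RNAs. The miR-34 family is known as a direct transcriptional target of the tumour suppressor p53. It represses cell cycle and survival genes such as Cdk4, Cdk6, Ccnd1, Met and Bcl2 and is known for roles in cell cycle arrest and senescence. The family is made from separate loci: miR-34a has its own, while miR-34b and miR-34c share a primary transcript that is known for high levels in testis, lung and brain. miR-449 has the same seed and is known from multiciliated epithelium.

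The sequences below are from RefSeq (GRCm38.p6) and show which members share a seed, given in capitals, 5′ to 3′. All 5 rows were looked up by name, and 4 matched a mature sequence. The row without a match was miR-34c, so its mature sequence is not printed. The Mir34c hairpin, shown further below, holds GGCAGUG 1 time. miR-34a, on chromosome 4 at 150068473 to 150068494 on the plus strand, and miR-34b-5p, on chromosome 9 at 51103610 to 51103632 on the minus strand, carry the seed GGCAGUG, as do miR-449a and miR-449c on chromosome 13. The other arms of the cluster, miR-34b-3p and miR-34c*, carry the seed AUCACUA, which no other mature mouse miRNA of the RefSeq table holds.
miR-34a: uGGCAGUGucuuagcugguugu
miR-34b-5p: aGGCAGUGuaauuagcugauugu
miR-449a: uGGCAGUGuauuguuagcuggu
miR-449c: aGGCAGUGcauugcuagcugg
miR-34b-3p: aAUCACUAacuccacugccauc
miR-34c*: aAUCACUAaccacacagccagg

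The hairpins of the cluster are shown because they differ by few bases where the 5p arms lie, which bears on the counts of miR-34b-5p given below. The seeds of both arms are in capitals. Mir34c lies on chromosome 9 at 51103034 to 51103110 and Mir34b at 51103562 to 51103645, with 451 bases between them. Both lie on the minus strand in an intron of Btg4, a gene on the plus strand, per GENCODE M21. Mir34a lies on chromosome 4 at 150068454 to 150068555, and its last bases overlap Gm37795, an unclassified transcript on the same strand.
Mir34b: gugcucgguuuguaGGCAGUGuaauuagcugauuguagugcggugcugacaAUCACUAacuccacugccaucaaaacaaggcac
Mir34c: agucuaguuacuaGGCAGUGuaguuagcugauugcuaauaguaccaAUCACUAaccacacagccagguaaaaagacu
Placed without gaps on the Mir34c hairpin, the mature miR-34b-5p differed at 2 of its 23 bases, A11G and U23C, counted from its 5′ end, with its own base first. The authors allowed up to 2 mismatches, and Mir34c was the 1 other RefSeq mouse hairpin within that distance of any of these 4 mature sequences. miR-34b-3p and miR-34c* differed from each other at 5 of 22 bases, and miR-34a was at least 6 mismatches from every other hairpin.

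The 4 libraries held 16680860 to 27362819 matches of reads to miRNAs, and 66.05% to 70.5% of them had no mismatch. TghuTNF replicate 2 stood apart with 11.67% of its matches at 2 mismatches, against 8.21% in TghuTNF replicate 1 and 8.64% and 8.73% in the WT libraries. Levels are given as CPM, the matches per 1000000 after scaling with TMM. The mesenchymal miRNAs of 9 tested rows (miR-21, miR-143, miR-145, miR-199a and miR-214) summed to 284084 and 305242 CPM in TghuTNF and to 282205 and 294935 CPM in WT, with 1 row, miR-214, called lower (log2 fold change -0.93, edgeR adjusted p = 0.037). Multiciliated (miR-449), epithelial and blood cell markers summed to at most 28.3 CPM in any library. Blood cell markers (3 of 5 rows tested, 1 called higher) stood at 28.3 and 21.2 CPM in TghuTNF, against 15.8 and 6.06 CPM in WT. Muscle markers (4 of 5 rows tested, 0 called, 4 at an unadjusted p under 0.05 by edgeR, 0 called by DESeq2) stood at 2054 and 1783 CPM in TghuTNF, against 2426 and 3008 CPM in WT. Of these, miR-133a and miR-133b had near-equal levels in every library, at 0.93 to 2.19 CPM, and whether they share reads was not tested. Of all 442 tested miRNAs, 13.3% were called and 128 were at an unadjusted p under 0.05 by edgeR. Endothelial markers (2 of 2 rows tested, 1 called lower) stood at 68.8 and 66.7 CPM in TghuTNF, against 127 and 108 CPM in WT. Their part in the results below was not tested, and in bulk cultures fewer cells of a type and less RNA per cell cannot be told apart.

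The total count of miR-34b-5p could not be told apart from reads of miR-34c. miR-34b-5p had 623024 and 480226 matches in the TghuTNF libraries and 363401 and 654818 in the WT libraries, which would make it as abundant as miR-34c. Of these matches, 99.2% to 99.4% had 2 mismatches. Those 2-mismatch matches numbered 618710 and 476496 in TghuTNF and 361132 and 650330 in WT. The perfect matches of miR-34c numbered 614862 and 473126 in TghuTNF and 359130 and 646365 in WT. The first were 100.6% to 100.7% of the second in every library, so the total of miR-34b-5p is not a separate measurement. Its perfect matches numbered 1870 and 1714 in TghuTNF and 1167 and 2274 in WT, between 0.300% and 0.357% of its total. Its matches at 1 mismatch numbered 2444 and 2016 in TghuTNF and 1102 and 2214 in WT. If every perfect match of miR-34c was counted once in the row of miR-34b-5p, the matches beyond them would be 1.19% to 1.501% of them. How a read matching more than 1 miRNA was counted is not given, so this is not a firm ceiling. The levels of the cluster are therefore given from perfect matches.

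**Figure D1:**
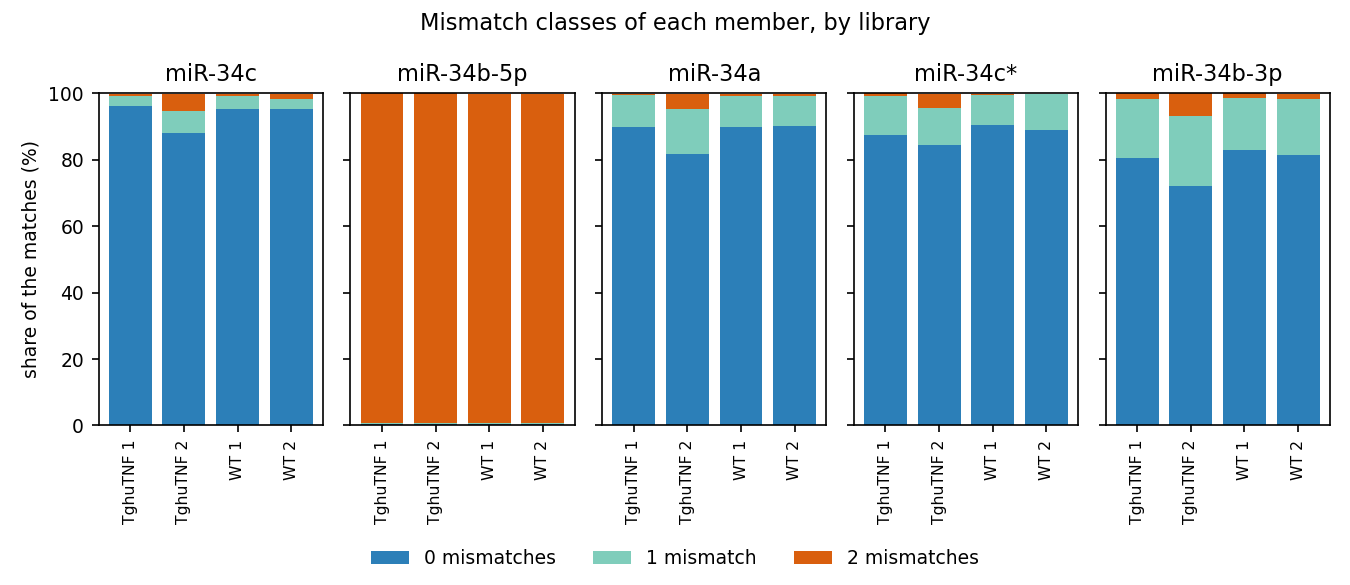
Share of each member's matches with 0, 1 and 2 mismatches (y axis, percent), with a stacked bar for each library (x axis). miR-34b-5p is over 99% 2-mismatch matches in all 4 libraries, while the other members are 72.0% to 96.1% perfect, each lowest in TghuTNF replicate 2.

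miR-34c was among the most abundant miRNAs of these fibroblasts and far above the rest of its family. On perfect matches it stood at 31568 and 31237 CPM in TghuTNF and at 31174 and 34605 CPM in WT. It ranked 7 or 8 among the 590 listed miRNAs in TghuTNF libraries and 7 or 9 in WT libraries. All 4 values lay close together, and the TghuTNF values fell within the range of the WT values. miR-34a, the member most often tied to p53, followed at 293 and 304 CPM in TghuTNF and 206 and 255 CPM in WT. Then came miR-34b-5p at 96.0 and 113 CPM in TghuTNF and 101 and 122 CPM in WT. Of the other arms, miR-34c* stood at 70.1 and 53.9 CPM in TghuTNF and 52.2 and 61.5 CPM in WT. miR-34b-3p stood at 30.9 and 31.3 CPM in TghuTNF and 21.7 and 34.1 CPM in WT. On perfect matches the order miR-34c, miR-34a, miR-34b-5p, miR-34c* and miR-34b-3p was the same in every library. There no member's range over the 4 libraries overlapped that of the next. Counting other matches of miR-34b-5p could change its place after miR-34a. The mature sequences printed above are 21 to 23 bases long, so CPM was not divided by length, and differences in adaptor ligation between sequences were not tested.

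**Figure D2:**
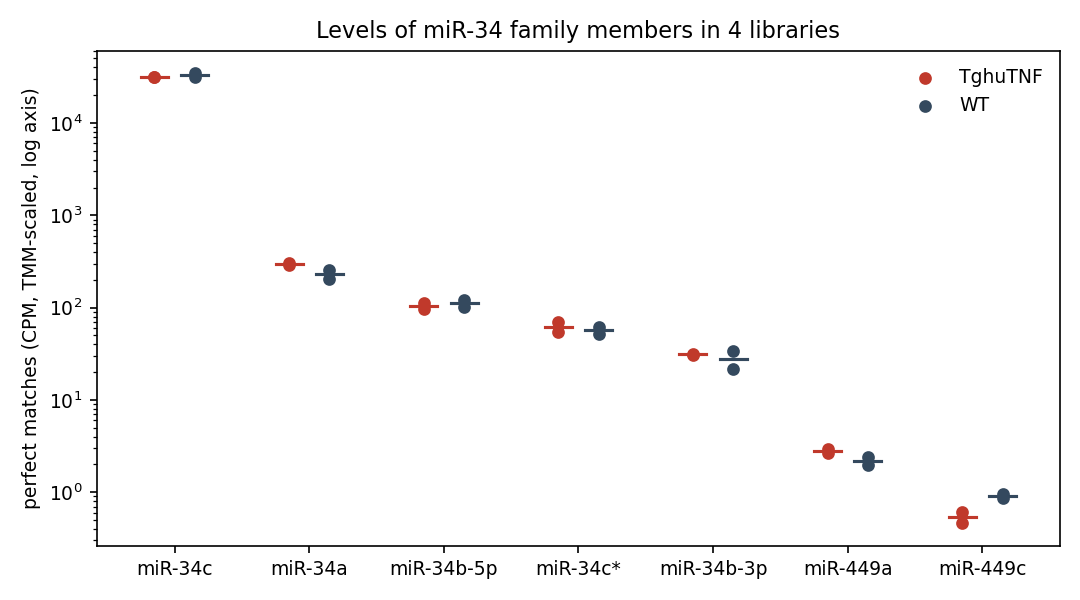
Perfect matches of each family member and of miR-449a and miR-449c in CPM on a log axis, with a point for each library and a line at the mean of each genotype (2 libraries each). miR-34c lies at 31174 to 34605 CPM and miR-34a at 206 to 304 CPM, with the other members below.

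Counted by seed, the family was nearly all miR-34c. Of all perfect matches to miR-34c, miR-34a, miR-34b-5p and the 3 miR-449 rows, miR-34c took 98.8% and 98.7% in TghuTNF and 99.0% and 98.9% in WT. miR-34a took 0.916% (exact 95% binomial interval 0.892% to 0.940%) and 0.961% (0.934% to 0.989%) in TghuTNF, against 0.655% (0.629% to 0.682%) and 0.728% (0.708% to 0.749%) in WT. Reads carry no molecular identifiers, so these intervals cover counting error only. Together the 6 rows took 3.23% and 3.16% of all perfect matches in TghuTNF and 3.13% and 3.49% in WT. The seed family thus held a like share of the pool in both genotypes, with ranges that overlapped.

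TghuTNF and WT fibroblasts were compared to learn whether the family differs with the transgene. No member passed the test. edgeR's quasi-likelihood test on total matches called 0 of 5 members at a Benjamini-Hochberg adjusted p of 0.05 over 442 tested miRNAs, with 0 at an unadjusted p under 0.05, and DESeq2 called 0. Of all tested miRNAs 13.3% were called, 4.75% higher and 8.6% lower in TghuTNF. On perfect matches edgeR again called 0 of 5, with 0 at an unadjusted p under 0.05, where 13.2% of 380 tested miRNAs were called. The median log2 fold change of the 5 members was 0.18 on total and 0.13 on perfect matches, against 0.0056 and -0.0021 over all tested miRNAs.

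miR-34a came nearest to a difference. On total matches it stood at 229.7 and 249.9 CPM in TghuTNF, from 6340 and 5628 reads, against 161 and 194 CPM in WT, from 2638 and 5280 reads. Both TghuTNF libraries lay above both WT libraries. The means were 239.8 ± 14.3 CPM in TghuTNF and 177 ± 23.6 CPM in WT (SD, n = 2 each). The log2 fold change was 0.44 ± 0.20 (SE), with a 95% interval of -0.011 to 0.88 and an edgeR adjusted p of 0.18. It was the 1 member of 5, or 20%, whose genotypes did not overlap, while 60.6% of all tested miRNAs were without overlap and 30.8% were so with TghuTNF higher. On perfect matches its log2 fold change was 0.37 ± 0.21, with an edgeR adjusted p of 0.27. There it was again the 1 member without overlap, against 60.3% of all tested miRNAs, and 27.4% with TghuTNF higher.

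The members of the cluster gave no difference past the test in either direction. miR-34c changed by -0.067 ± 0.14 (SE) on the log2 scale of perfect matches, with a 95% interval of -0.38 to 0.25 and an edgeR adjusted p of 0.79. This interval leaves out a change of 2-fold or more either way. miR-34b-5p gave -0.093 ± 0.23 with an interval of -0.61 to 0.42, and miR-34c* gave 0.13 ± 0.25 with an interval of -0.44 to 0.69. miR-34b-3p gave 0.15 ± 0.28 with the widest interval of the 5 members on perfect matches, -0.49 to 0.80. Its WT libraries lay at 21.7 and 34.1 CPM, on either side of the TghuTNF libraries at 30.9 and 31.3 CPM. On total matches miR-34c gave -0.026 ± 0.15 and miR-34b-5p, which repeats its reads, -0.073 ± 0.15.

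**Figure D3:**
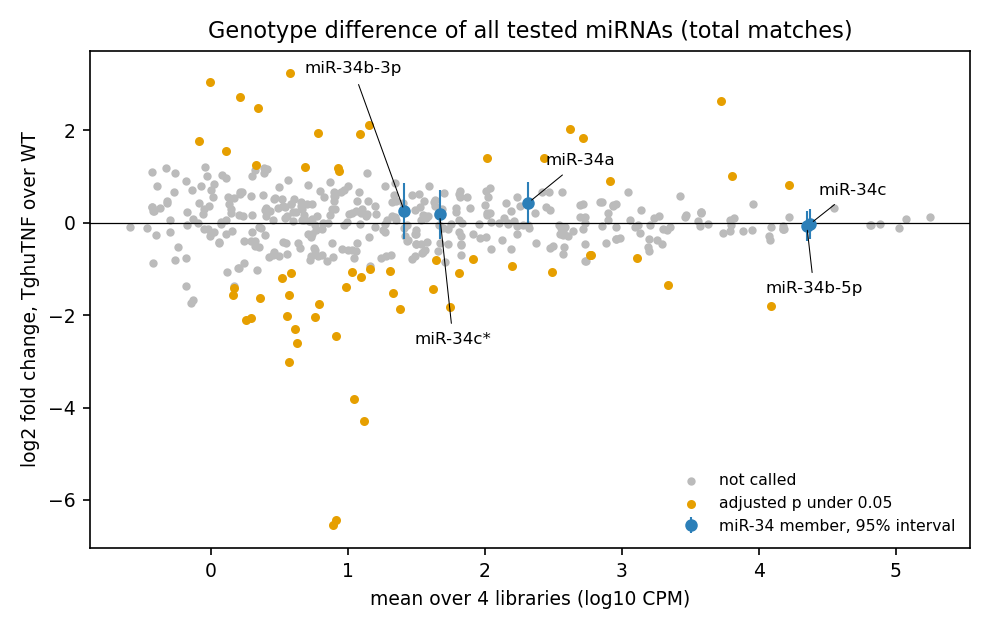
Log2 fold change of TghuTNF over WT (y axis) against the mean level in log10 CPM (x axis) for the 442 tested miRNAs on total matches. Points are grey where not called and orange where called by edgeR, and the 5 miR-34 rows are blue with 95% intervals, all of which include 0.

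Relative to miR-34c, miR-34a was higher in both TghuTNF libraries than in either WT library. Per 100 perfect matches of miR-34c there were 0.927 and 0.974 of miR-34a in TghuTNF, against 0.661 and 0.737 in WT. Put the other way, miR-34c exceeded miR-34a 108-fold and 103-fold in TghuTNF and 151-fold and 136-fold in WT. On the log2 scale of total matches the ratio of miR-34a to miR-34c averaged -6.62 ± 0.056 in TghuTNF and -7.08 ± 0.11 in WT (SD, n = 2 each), a difference of 0.47. The libraries of the genotypes did not overlap, and the exact permutation test over libraries, two-sided, gave p = 0.333, the smallest that 2 against 2 libraries allow. Of all tested miRNAs, 60.6% had levels without overlap, and the share of other locus ratios without overlap was not computed. The ratio of miR-34a to miR-34b-5p, on perfect matches, gave a difference of 0.47 as well, with miR-34a at 305% and 269% of miR-34b-5p in TghuTNF and 203% and 209% in WT (exact permutation p = 0.333). These ratios share the counts of miR-34a with the fold change above and are not separate evidence.

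Within the cluster the balance of miR-34b to miR-34c depended on the arm. Of the 5p arms, miR-34c exceeded miR-34b-5p 329-fold and 276-fold in TghuTNF and 308-fold and 284-fold in WT, on perfect matches. This leaves out the matches of miR-34b-5p at 1 mismatch, whose source was not tested, so the fold may be overstated. Of the 3p arms, miR-34c* exceeded miR-34b-3p by 2.27-fold and 1.72-fold in TghuTNF and by 2.40-fold and 1.81-fold in WT. The 3p arms share no reads at 2 mismatches, so their ratio does not rest on the sharing seen for the 5p arms. The 3p ratio was nearer between libraries of the same replicate number than within a genotype, while genotypes overlapped (log2 difference of miR-34b-3p to miR-34c* 0.075, exact permutation p = 0.667). The 5p ratio was so too. miR-34b-5p stood at 0.304% and 0.325% of miR-34c in replicate 1 of TghuTNF and WT, and at 0.362% and 0.352% in replicate 2. For the 5p arms the genotypes overlapped too, with a log2 difference of -0.027 (exact permutation p = 1).

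**Figure D4:**
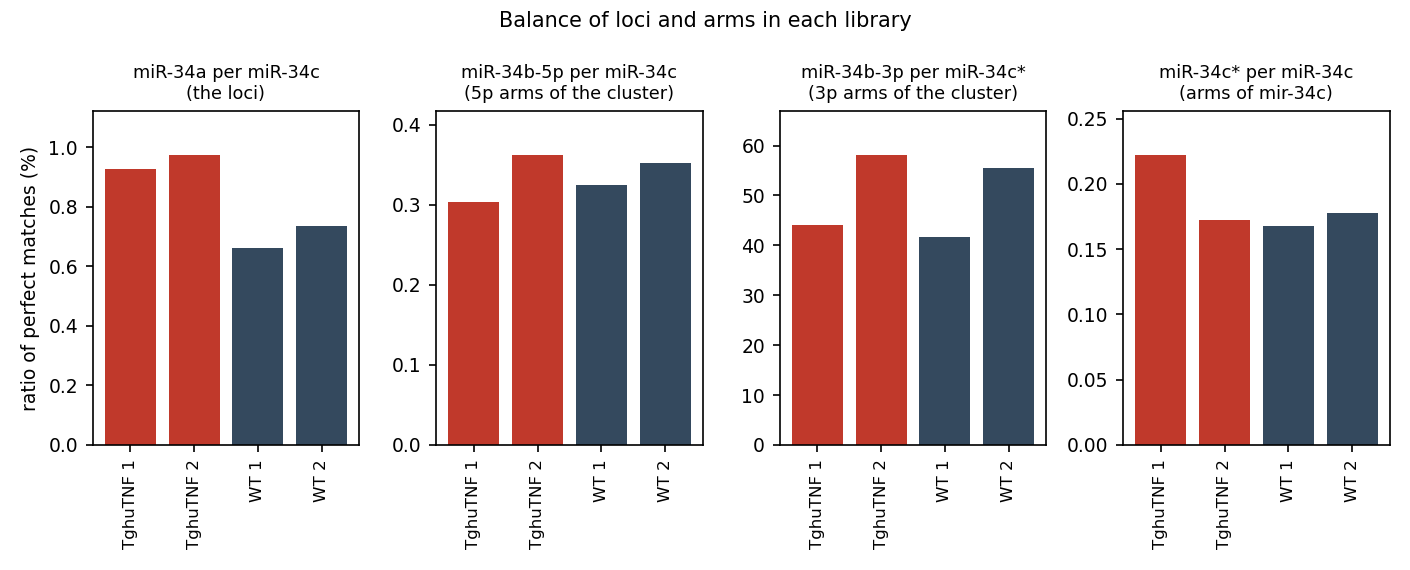
Ratios of perfect matches in percent (y axes, each from 0) in each library (bars, TghuTNF in red and WT in dark blue). miR-34a per miR-34c is 0.927% and 0.974% in TghuTNF above 0.661% and 0.737% in WT, while the other ratios overlap between genotypes.

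The hairpins of the cluster differed in how far 1 arm prevailed. miR-34c exceeded miR-34c* 450.3-fold and 579-fold in TghuTNF and 597-fold and 563-fold in WT on perfect matches. This imbalance ranked 12 among 84 hairpins with both arms tested, whose median was 4.11 on the log2 scale, against 9.09 for miR-34c. miR-34b-5p exceeded miR-34b-3p 3.11-fold and 3.61-fold in TghuTNF and 4.66-fold and 3.57-fold in WT, which ranked 68 of 84. This fold leaves out the matches of miR-34b-5p at 1 mismatch. Whether those came from miR-34b or miR-34c was not tested, so the imbalance of mir-34b and its rank may be understated. The other arm of mir-34a had no row in any library, so its arm balance could not be described.

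The arm ratios gave no genotype difference past the test. The log2 ratio of miR-34c to miR-34c* on total matches stood at 8.68 and 9.12 in TghuTNF and 9.14 and 9.04 in WT. The difference was -0.20 ± 0.27 (SE), with a 95% interval of -0.85 to 0.46 and a limma adjusted p of 0.87. TghuTNF replicate 2 lay between the WT libraries, and TghuTNF replicate 1 lay below them. On perfect matches the log2 ratio of the arms of mir-34b differed by -0.28 ± 0.32 (limma adjusted p = 0.89). limma called 0 of 106 hairpins on total matches (0% called, 6 at an unadjusted p under 0.05) and 0 of 84 on perfect matches (0% called, 9 at an unadjusted p under 0.05).

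The share of perfect matches was lowest in TghuTNF replicate 2 for 4 of the 5 members. miR-34c had 96.1% and 88.1% perfect matches in TghuTNF and 95.4% and 95.2% in WT. miR-34a had 89.9% and 81.9% in TghuTNF and 90.0% and 90.2% in WT. TghuTNF replicate 2 is also the library with the most 2-mismatch matches over all miRNAs, and the part of this in the members' shares was not tested. There miR-34c had 28632 matches at 2 mismatches, against 4887 in TghuTNF replicate 1 and 3155 and 10931 in WT. miR-34c* (87.4% and 84.5% in TghuTNF, 90.4% and 89.1% in WT) and miR-34b-3p (80.5% and 72.0% in TghuTNF, 83.1% and 81.4% in WT) were lower in both TghuTNF libraries than in either WT library. So was miR-34a, at 89.94% and 81.88% in TghuTNF against 90.03% and 90.15% in WT, a narrow gap for TghuTNF replicate 1. For miR-34c and miR-34b-5p the genotypes overlapped. Over 328 tested miRNAs the odds of a perfect match did not overlap between genotypes for 35.7%, and for 26.8% with TghuTNF lower. The log2 odds of a perfect match differed by -0.58 ± 0.63 for miR-34c, -0.52 ± 0.40 for miR-34a, -0.52 ± 0.26 for miR-34c* and -0.51 ± 0.32 for miR-34b-3p, against a median of -0.19 over 328 miRNAs. The limma adjusted p of these 4 members was 0.79 to 0.82. Without TghuTNF replicate 2 the difference was 0.30 for miR-34c, -0.024 for miR-34a, -0.35 for miR-34c* and -0.17 for miR-34b-3p. Without TghuTNF replicate 1 it was -1.45 for miR-34c, -1.01 for miR-34a, -0.70 for miR-34c* and -0.84 for miR-34b-3p. limma called 0 of the 328 miRNAs (0% called, 17 at an unadjusted p under 0.05).

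The miR-449 rows were scarce. By sequence, miR-449a and miR-449c share the seed of miR-34a. No mature sequence was found for miR-449b, so its seed was not checked. miR-449a had 52 and 44 perfect matches in TghuTNF and 28 and 37 in WT. Its log2 fold change on total matches was 0.36 ± 0.32 (edgeR adjusted p = 0.50). miR-449c had 12 and 7 perfect matches in TghuTNF and 11 and 16 in WT, with a log2 fold change on total matches of -0.80 ± 0.55 (edgeR adjusted p = 0.36). miR-449b had 0 perfect matches in every library. The exact 95% binomial interval of its share of the family's perfect matches reached up to 0.00102%, in WT replicate 1. Of its 124 and 129 matches in TghuTNF and 77 and 119 in WT, 95.3% to 98.7% had 2 mismatches.

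Other miRNAs known to be induced, or processed more, under p53 were mostly not called. Of 22 tested rows of this list, 2 rose, 0 fell and 20 did not pass edgeR's test, a share of 9.09%, near the 13.3% of all tested miRNAs. Over the list the median log2 fold change came to 0.11, against 0.0056 over all. Of these rows, miR-107, miR-29c and miR-145* had 0.151%, 0.240% and 0.478% perfect matches, as few as miR-34b-5p, and whether their totals repeat reads of other miRNAs was not tested. On perfect matches 21 of the rows were tested and edgeR called 2, with a median of 0.068. miR-215, which like miR-34 is known to bring about cell cycle arrest, stood at 18.3 and 20.6 CPM in TghuTNF, against 4.87 and 5.40 CPM in WT (log2 fold change 1.92 ± 0.27, edgeR adjusted p = 0.00082). miR-22, known to promote senescence in fibroblasts, stood at 7061 and 10078 CPM in TghuTNF, against 4003 and 4449 CPM in WT (1.02 ± 0.19, edgeR adjusted p = 0.0039). miR-192 and miR-194, the other members of the group of miR-215, gave -0.12 and 0.10 and did not pass. The abundant miR-143 (-0.11 ± 0.14) and miR-103 (0.11 ± 0.18) did not pass either. Of 9 rows that are known to repress p53 or belong to the hairpins of such miRNAs, edgeR called 0, with 2 at an unadjusted p under 0.05, and DESeq2 called 1. Their median was 0.31 on total matches and -0.067 over the 7 rows tested on perfect matches. The most abundant were miR-125b-5p (0.31 ± 0.15), miR-30d (-0.13 ± 0.15) and miR-125b-3p (0.40 ± 0.18), the last with 1.79% perfect matches.

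miRNAs known to rise in senescent cells went both ways. Of 31 tested rows, 3 rose, 4 fell and 24 did not pass, and the median log2 fold change was 0.071. Those that rose were miR-22, miR-146a, which dampens inflammatory signalling through Irak1 and Traf6 (2.64 ± 0.25, edgeR adjusted p = 7.8e-05), and miR-138 (1.12 ± 0.29, edgeR adjusted p = 0.032, 30.1% perfect matches). On perfect matches miR-138 did not pass (edgeR adjusted p = 0.071), and 2 rows rose and 4 fell. Those that fell were miR-146b (-1.79 ± 0.24), miR-146b* (-2.01 ± 0.34), miR-335-5p (-4.28 ± 0.53) and miR-335-3p (-3.82 ± 0.34), with an edgeR adjusted p of 4.9e-05 to 0.0026. miR-30a, miR-30d and miR-30e, the most abundant rows, gave -0.13, -0.13 and -0.14 and had 23.0% to 38.8% perfect matches, and whether these rows share reads was not tested. The called share was 22.6%, against 13.3% of all tested miRNAs, and it spans arms of the same hairpins.

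Tested too were 18 rows of miRNAs known to fall in senescent cells, mostly of the miR-17-92 cluster and its paralogs that drive proliferation. edgeR called 0 of the 18, where 13.3% of all tested miRNAs were called and 8.6% were called lower. At an unadjusted p under 0.05 by edgeR there was 1, where 128 of 442 tested miRNAs were, and DESeq2 called 0 of the 18. Their median log2 fold change was -0.27, against 0.0056 over all tested miRNAs, and 2 of 18 were positive. On perfect matches 17 of the rows were tested, with a median of -0.24, against -0.0021 over all. miR-106a, miR-19a, miR-106b* and miR-17 had 0.0151%, 14.6%, 16.1% and 39.2% perfect matches. Whether the totals of these rows repeat reads of other miRNAs was not tested, so the rows may not be separate measurements. miR-24 gave -0.066 ± 0.17, miR-93 -0.16 ± 0.16 and miR-20a -0.34 ± 0.20. Without TghuTNF replicate 1, edgeR called 6 of them lower, and without any other library it called 0. In that fit 13.6% of 449 tested miRNAs were called higher and 20.5% lower, so calls were more frequent over all miRNAs too. Also without TghuTNF replicate 1, the count called higher was 4 for the p53-induced rows, 1 for those that repress p53 and 6 for those known to rise in senescence. Without TghuTNF replicate 2, 1 p53-induced row and 1 row of those that repress p53 were called lower, where 11.4% of 457 miRNAs were. The count of rows called higher among those known to rise in senescence was 2 without WT replicate 1 or without WT replicate 2.

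The profile of miR-34a over the 4 libraries was most like that of let-7i, miR-425 and miR-1193. Likeness was the root mean square difference of log2 CPM, each profile centred on its own mean over 4 libraries, and was 0.045, 0.058 and 0.064, against a median of 0.33 over all other tested miRNAs. let-7i stood at 9711 and 10928 CPM in TghuTNF, against 7365 and 8295 CPM in WT, and did not pass either (0.40 ± 0.16, edgeR adjusted p = 0.12). The profile of miR-34c was most like those of miR-25 (0.025), miR-3470b (0.032) and miR-106b* (0.036), with a median of 0.27 over all others. miR-1193 stood at 0.67 to 1.42 CPM and miR-3470b at 1.10 to 1.29 CPM over the 4 libraries, so their profiles rest on few reads. In mean CPM of total matches miR-34a lay between miR-671-5p (-0.11 ± 0.20) and miR-15a (-0.050 ± 0.21), and their libraries' ranges overlapped with its own. miR-34c lay below miR-125b-5p, with no overlap, and above miR-34b-5p.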

How the data were processed

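The authors matched reads of 37 bases to 707 mouse miRNAs with mimap version 3d, allowing 2 mismatches, per the file headers. The authors deposited, for each miRNA, a raw count of matches and its split into 3 mismatch classes. How adaptors were trimmed, which miRBase release was searched and how a read matching more than 1 miRNA was counted is not given in the sources used here.

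Depth was 16680860 to 27362819 matches per library. A count of 0 allows 3 counts, 0.110 to 0.180 CPM, counting error only. Counts were filtered with filterByExpr, scaled with TMM and tested with edgeR 4.0.16 (quasi-likelihood, two-sided, Benjamini-Hochberg) in R 4.3.3, with genotype as the only term. Arm ratios and the log2 odds of a perfect match (at least 40 perfect and 40 other matches summed over libraries) were tested with limma 3.58.1 at a pseudocount of 0.5. DESeq2 1.42.0 was an alternative. Ratios of loci were compared by exact permutation. The tests were checked on simulated counts. Members, lists and named miRNAs were chosen with earlier results of these data known. Named were the members, miRNAs with the same seed, called and the 3 most abundant rows of each list, and the nearest profiles and neighbours in level. miR-192, miR-194, miR-107, miR-29c, miR-145*, miR-214, miR-106a, miR-19a and miR-17 were named after their values were seen.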

Additional observations from a re-analysis of the deposited data

How the results depend on the processing

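No member was called under any alternative. Over all miRNAs, 21 were called higher and 38 lower. Without a filter 39 were higher, and with the replicate block 34. Leaving out 1 library gave 17 to 61 higher and 29 to 92 lower, the most without TghuTNF replicate 1. Same-numbered libraries are not said to be paired, and their deviations correlated at -0.088 over 442 miRNAs. miR-34a was higher in TghuTNF under all 12 alternatives to its fold change, from 0.31 without WT replicate 1 to 0.58 without WT replicate 2, and 0.44 with the replicate block. Upper quartile factors moved the median of all miRNAs by -0.11, and miR-34a was then at 0.33. With 0 or 1 mismatch, miR-34b-5p turned to 0.15 and miR-34c to 0.0091. Leaving out 1 library, the log2 fold change ranged from -0.028 to 0.62 for miR-34b-3p, -0.085 to 0.033 for miR-34c and -0.11 to 0.34 for miR-34c*. The log2 ratio of miR-34a to miR-34c differed by 0.39 to 0.54, and that of miR-34c to miR-34c* by -0.42 to 0.026. The log2 odds of a perfect match differed by -0.15 to 0.096 for miR-34b-5p and by -1.45 to 0.30 for miR-34c, the last without TghuTNF replicate 2. The cause of these turns was not tested. With 2 libraries a genotype, exact tests cannot go below 0.333. The list counts without each library were added after seeing the data.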

Other observations

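The ratio of miR-34b-3p to miR-34c* on perfect matches was 44.0% and 58.1% in TghuTNF replicates 1 and 2 and 41.6% and 55.4% in WT replicates 1 and 2. On total matches it was 47.8% and 68.1% in TghuTNF replicates 1 and 2 and 45.3% and 60.7% in WT replicates 1 and 2. Replicate 1 was lower in both genotypes, as it was for miR-34b-5p to miR-34c on perfect matches. The labels do not say that the numbers pair the samples.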
